A study of Mus musculus with 6 samples.

Results

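The genes that carry retinoids and make retinoic acid were examined in the olfactory bulbs (OBs) of aged Tg2576 mice. The 8 genes were chosen by name. They are Rbp4, Ttr and Stra6, which move retinol outside and into cells, Crabp1 and Crabp2, which hold retinoic acid inside cells, and Aldh1a1, Aldh1a2 and Aldh1a3, which make it. They are 8 of 19505 genes named on the array, and each had 1 probe set with its symbol among the 22206 tested, so the rule of taking the set with the highest mean level made no choice between sets. The mean levels that this rule reads are given below as a description. The genes were picked when earlier results of these arrays, the lower level of Rbp4 among them, were known, so their values describe these samples and are not independent evidence of a direction.

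The arrays came from 6 female mice of 18 months, 3 Tg2576 and 3 WT littermates, with 1 Affymetrix mouse Clarion S array for the OB RNA of each mouse. Tg2576 mice carry human amyloid precursor protein with the Swedish double mutation, driven by the hamster prion promoter, and WT mice lack the transgene. RNA of the bulk tissue was used, so the cell of origin of an RNA is not known, and fewer cells of a type cannot be told apart from less RNA per cell. The deposited values are log2 expression values from RMA, which corrects background, aligns arrays by quantiles and summarises the probes of a set. The median of each array was 8.18 to 8.22, and every pair of arrays had a Pearson's r of 0.992 to 0.995 over all probe sets. The medians of the negative control probe sets lay between 6.78 and 6.91, and their 75th percentiles between 8.17 and 8.27. Of the 11 measured markers of bulb neurons, the lowest mean was 8.99 and the highest 12.83. The markers of the dopaminergic periglomerular neurons of the bulb ran from 6.66 for Gch1, below the medians of the negative controls, to 13.21 for Meis2.

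Retinol, or vitamin A, is hydrophobic and travels in blood bound to RBP4, which is itself held by transthyretin, the product of Ttr. STRA6 is a membrane receptor that takes retinol from RBP4 into the cell. Alcohol and short-chain dehydrogenases oxidise retinol to retinaldehyde, and the 3 ALDH1A enzymes oxidise retinaldehyde to retinoic acid, which binds nuclear receptors and is broken down by CYP26 enzymes. In brain, retinoic acid made by the meninges acts on nearby tissue, and the OB, which receives new neurons throughout life, is one of the places where it is known to act.

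The sequences before the start sites of Rbp4 are shown because this was the member that differed between genotypes. RefSeq sequences of GRCm38.p6 were searched for 5 of the 8 members, in the 250 bases before each annotated start and on both strands. Ttr, Crabp2 and Aldh1a3 were not searched. Capitals mark the matches to the motifs searched. The motifs were those of retinoid receptors, of factors that respond to cAMP and neuronal activity, and of the core promoter. These were the retinoic acid half-site AGGTCA, direct repeats of it spaced by 2 and 5 bases, the cAMP response element TGACGTCA and its half-site TGACG, the AP-1 element TGAGTCA, the Egr element GCGTGGGCG and the TATA box TATAAA. The half-site TGACG is part of TGACGTCA, and AGGTCA is part of its direct repeats. The 2 Rbp4 starts are numbered by genome coordinate, so on the minus strand the first lies downstream of the second. The first has the window chr19:38124812-38125061 (minus strand), and the other has chr19:38125322-38125571 (minus strand). The window of Aldh1a1, at chr19:20492333-20492582 (plus strand), is shown as that of a member with an AP-1 element whose RNA did not pass the thresholds.
Rbp4 first window: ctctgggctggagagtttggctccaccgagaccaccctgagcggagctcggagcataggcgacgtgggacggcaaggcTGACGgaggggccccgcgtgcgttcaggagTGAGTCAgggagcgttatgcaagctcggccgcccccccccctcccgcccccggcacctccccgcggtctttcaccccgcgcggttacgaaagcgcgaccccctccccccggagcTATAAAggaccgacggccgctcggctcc
Rbp4 second window: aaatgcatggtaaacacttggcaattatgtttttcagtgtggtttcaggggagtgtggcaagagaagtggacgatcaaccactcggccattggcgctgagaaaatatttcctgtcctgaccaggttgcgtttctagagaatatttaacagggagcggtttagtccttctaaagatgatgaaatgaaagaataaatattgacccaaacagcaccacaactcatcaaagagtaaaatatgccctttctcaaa
Aldh1a1 window: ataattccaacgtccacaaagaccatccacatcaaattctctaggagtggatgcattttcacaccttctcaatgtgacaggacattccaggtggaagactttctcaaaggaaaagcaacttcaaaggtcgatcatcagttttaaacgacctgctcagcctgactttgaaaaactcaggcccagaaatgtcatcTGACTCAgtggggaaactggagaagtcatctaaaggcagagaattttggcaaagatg

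The first Rbp4 window was rich in G and C (GC content 70.8%) and held a TATA box beginning at -28, an AP-1 element at -142 and a cAMP response element half-site at -172, in bases from the start site. Its other window (GC content 40.8%) and the windows of Aldh1a2, Crabp1 and Stra6 held none of the motifs, and Aldh1a1 had an AP-1 element in 1 of 2 windows, read as TGACTCA on the printed strand. Among 32851 windows of the same length, 4.46% held the AP-1 element, 17.8% the half-site TGACG, 1.55% the full cAMP response element, 14.0% AGGTCA and 12.4% the TATA box. Direct repeats spaced by 2 or by 5 bases each occurred in 3 windows, none of them among the windows searched for the members, and the Egr element in 0.536%. A match of letters is a description of the sequence and not of binding, and which start was used in these bulbs was not measured.

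Rbp4, the gene of the retinol carrier of blood, was lower in Tg2576 OBs. Its log2 values were 7.97, 7.90 and 8.07 in Tg2576 replicates 1 to 3 and 8.49, 8.48 and 8.82 in WT replicates 1 to 3. Every Tg2576 array lay below every WT array, and WT replicate 3 was the highest of the 6. Tg2576 OBs averaged 7.98 ± 0.082 (SD, n = 3) and WT OBs 8.60 ± 0.19 (SD, n = 3), a fold of 0.651. The mean level of Rbp4 over all arrays, 8.29, lay above 76.8% of the negative controls. Its 3 Tg2576 values lay below the 75th percentiles of those controls in the same arrays (8.17 to 8.18). The log2 difference was -0.62 (SE 0.11, 95% confidence interval -0.87 to -0.37). Its unadjusted p in limma, a linear model that moderates each variance by those of all probe sets, was 0.00037, and its Benjamini-Hochberg adjusted p over all probe sets was 0.332. This passed the thresholds used here, an unadjusted p under 0.01 with a fold over 1.3 or under 0.7. Over all probe sets 0.797% passed these thresholds, 0.698% as higher and 0.0991% as lower in Tg2576. The fold threshold is stricter for lower sets, and the 22 lower sets became 75 with an equal threshold in both directions and 47 without WT replicate 1. Rbp4 was 1 of the 22 lower probe sets, the only one of the 8 members, and stood at place 21 of 22206 by p. Leaving out WT replicate 3 gave -0.51 and a fold just above 0.7, so that the call ended, while the unadjusted p stayed at 0.00069.

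**Figure D1:**
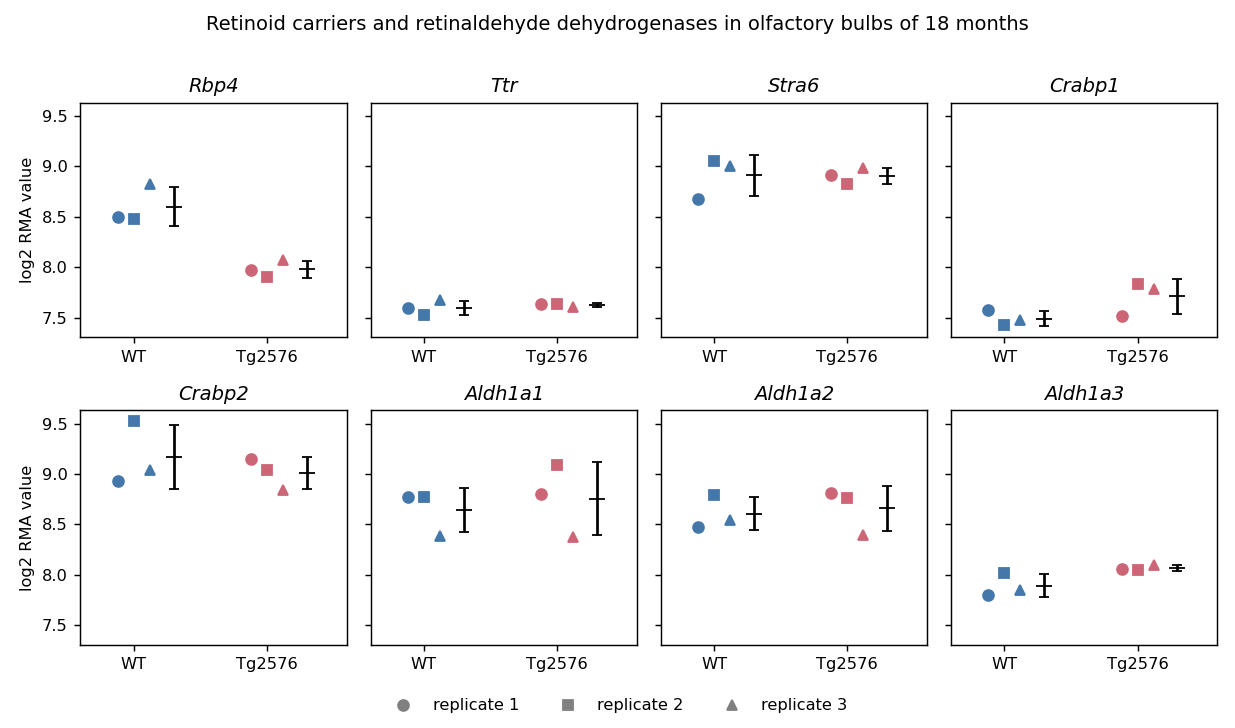
Log2 RMA value (vertical axis, one scale for all panels) of the 8 genes in 3 WT (blue) and 3 Tg2576 (red) OBs, with the replicate number as the shape of the point and mean ± SD in black. The Rbp4 values of Tg2576 lie at 7.90 to 8.07, all under the WT values of 8.48 to 8.82, and levels are not comparable between panels because each probe set has its own probes.

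The partners of RBP4 did not pass the thresholds. Ttr, whose product holds RBP4 in blood and also carries thyroxine, was at 7.64, 7.64 and 7.61 in Tg2576 replicates 1 to 3 and at 7.60, 7.53 and 7.67 in WT replicates 1 to 3. The groups overlapped in full, and the 6 values spanned the narrowest range of any member (SD over the 6 arrays 0.049). The difference on the log2 scale was 0.027 (95% confidence interval -0.14 to 0.20, limma adjusted p = 0.958). Its mean of 7.61 lay above 65.5% of the negative controls. Of 17 markers of the choroid plexus, the tissue known for very high Ttr, 15 were measured and none passed the thresholds. Their mean lay between -0.070 and 0.052 from the WT mean in Tg2576 arrays and between -0.049 and 0.065 in WT arrays. Their mean levels were spread widely. Among markers named after their values were seen, Kcnj13 had a mean of 9.98 in Tg2576 and 10.03 in WT, and Tmem72 and Aqp1 had means of 9.47 and 8.93 over all arrays, above most negative controls. Otx2 and Kl were at 6.40 and 5.79, below the medians of the negative controls, and Folr1 was just above them at 7.08. Steap1 differed by -0.38 (SE 0.10, unadjusted p = 0.0047 in limma), with all Tg2576 arrays below all WT arrays. It was not called only because its fold of 0.768 did not fall under 0.7, the threshold for lower sets. Its mean over all arrays, 6.41, also lay below the medians of the negative controls.

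Stra6, the receptor gene, was at 8.91, 8.82 and 8.98 in Tg2576 and at 8.68, 9.05 and 9.01 in WT replicates 1 to 3. WT replicate 1 was the lowest array and WT replicate 2 the highest, so all 3 Tg2576 values fell inside the WT range. The log2 difference was -0.0058 (95% confidence interval -0.26 to 0.25, limma adjusted p = 0.995).

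The cellular carriers of retinoic acid differed less between genotypes than Rbp4 did. Crabp1, which binds retinoic acid in the cytoplasm, was at 7.51, 7.84 and 7.78 in Tg2576 and at 7.57, 7.43 and 7.47 in WT replicates 1 to 3. Replicates 2 and 3 of Tg2576 lay above all WT arrays, and replicate 1 lay inside the WT range. Tg2576 minus WT came to 0.22 (95% confidence interval -0.011 to 0.45, limma unadjusted p = 0.060, adjusted p = 0.599), and it ranged from 0.16 to 0.32 when 1 array was left out. Its mean level of 7.60 lay above 65.3% of the negative controls. Crabp2, which passes retinoic acid on to its nuclear receptor, was at 9.15, 9.04 and 8.84 in Tg2576 and at 8.93, 9.52 and 9.04 in WT replicates 1 to 3. WT replicate 2 was the highest array by far, and the other 5 values overlapped. The log2 difference was -0.16 (95% confidence interval -0.51 to 0.20, limma adjusted p = 0.842), and without WT replicate 2 it was 0.024.

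The 3 genes of the enzymes that make retinoic acid did not pass the thresholds either, and they varied in different ways. Aldh1a1 was at 8.80, 9.09 and 8.38 in Tg2576 and at 8.77, 8.77 and 8.39 in WT replicates 1 to 3. It was lowest in replicate 3 of both genotypes and highest in Tg2576 replicate 2. The difference on the log2 scale was 0.11 (95% confidence interval -0.30 to 0.53, limma adjusted p = 0.913), the widest interval of the 8 members, which leaves a fold of more than 1.3 within it. Aldh1a7, a close copy of Aldh1a1 in mouse with a probe set of its own, differed by 0.046 (SE 0.081), and whether probes of either set bind the RNA of the other was not tested.

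Aldh1a2, the enzyme gene known from the meninges, was at 8.82, 8.76 and 8.40 in Tg2576 and at 8.48, 8.79 and 8.55 in WT replicates 1 to 3. Tg2576 replicate 3 was the lowest array and Tg2576 replicate 1 the highest, so the WT values lay inside the Tg2576 range. The log2 difference was 0.054 (95% confidence interval -0.24 to 0.35, limma adjusted p = 0.950). Aldh1a3 was at 8.05, 8.05 and 8.10 in Tg2576 and at 7.80, 8.02 and 7.85 in WT replicates 1 to 3. All 3 Tg2576 arrays lay above all 3 WT arrays, with WT replicate 2 (8.02) close beneath Tg2576 replicate 2 (8.05). The log2 difference of 0.18 had a 95% confidence interval from -0.014 to 0.37 (limma unadjusted p = 0.065, adjusted p = 0.611).

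Rbp4 and Aldh1a3 were thus the 2 of 8 members whose genotypes did not overlap, Rbp4 lower and Aldh1a3 higher, where 14.1% of all probe sets had no overlap. One of the 8 had an unadjusted p under 0.05, against 8.54% of all probe sets. The median difference of the 8 members was 0.040, beside -0.0049 over all probe sets. In these counts the members as a group stood near the background, and the difference lay in Rbp4.

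Beyond the members, 79 genes were listed, by role in the retinoid pathway or as relatives of the members in their 2 protein families. Of these 71 were measured, and none passed the thresholds, where 0.797% of all probe sets did. A count of 0 among 71 genes is near that share. The measured genes had a median difference of 0.020, and limma gave an unadjusted p under 0.05 to 5 of them, 2 higher and 3 lower. Over all probe sets 8.54% had such a p. With robust limma-trend the count past the thresholds was also 0. Genotypes did not overlap for 8.45% of the 71 measured genes, against 14.1% of all probe sets. Among 9 genes of retinol uptake and storage, with a median of 0.047, the smallest p belonged to Scarb1, a lipoprotein receptor that takes up carotenoids. Its mean was 9.16 in Tg2576 OBs and 9.03 in WT OBs (difference 0.13, SE 0.077). Bco1, which cleaves carotene to retinaldehyde, differed by 0.12 (SE 0.085), and Rbp2, a cellular retinol carrier of the intestine, by 0.11 (SE 0.091). The mean level of Rbp2, 6.87, lay near the medians of the negative controls.

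Of 16 genes listed for the interconversion of retinol and retinaldehyde, with a median of 0.035, the smallest p values belonged to lower ones. The list also held Aldh8a1, which is counted again below among the other aldehyde dehydrogenases. Dhrs9, a short-chain dehydrogenase, differed by -0.37 (SE 0.12, unadjusted p = 0.017 in limma) at levels of 4.72 and 5.09, below the medians of the negative controls. Adh4, an alcohol dehydrogenase, differed by -0.28 (SE 0.095, unadjusted p = 0.018 in limma), also near those medians at 6.64 and 6.92. For both, all Tg2576 arrays lay below all WT arrays. Rdh14, a retinol dehydrogenase, differed by -0.23 (SE 0.10). Adh1, which is named because of its value, was at 8.66, 7.92 and 8.39 in Tg2576 and at 7.89, 8.02 and 7.98 in WT replicates 1 to 3. Replicates 1 and 3 of Tg2576 lay above all WT arrays and replicate 2 did not, and the difference of 0.36 (SE 0.17) became 0.56, past the thresholds, without Tg2576 replicate 2. The mean of the list for the olfactory mucosa, made of genes of its non-neuronal cells, was likewise high in Tg2576 replicates 1 and 3. Over the 18 measured, their mean lay 0.90 and 0.89 above the WT mean in Tg2576 replicates 1 and 3 and at -0.22 in replicate 2, against -0.24 to 0.35 in WT arrays. These genes did not rise alike. Their genotype differences ran from -0.19 for Trpm5 to 1.62 for Cyp1a2, with a median of 0.19. The part of these genes in the values of Adh1 was not tested.

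The genes downstream of retinoic acid gave no call. The 3 genes of its breakdown were Cyp26b1, which differed by -0.099 (SE 0.089), Cyp26c1, by -0.043 (SE 0.10), and Cyp26a1, by 0.011 (SE 0.079). Cyp26a1, which retinoic acid strongly induces in many cells, had a mean level of 6.75, under the medians of the negative controls. Of 7 genes of the receptors and their partners, with a median of 0.083, Rxrg, a retinoid X receptor, differed by 0.26 (SE 0.12), Rara by 0.12 (SE 0.11) and Rxrb by 0.083 (SE 0.077). Rxrg was at 9.31, 9.21 and 8.85 in Tg2576 and at 8.96, 8.80 and 8.84 in WT replicates 1 to 3, and without Tg2576 replicate 3, the lowest of its group, it passed the thresholds at 0.40. Of 4 coregulators, Ncoa2 differed by -0.10 (SE 0.074), Ncoa3 by -0.10 (SE 0.092) and Nrip1 by -0.053 (SE 0.097). The mean level of Nrip1, 6.63, was also under the medians of the negative controls.

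Of 12 genes that respond to retinoic acid, with a median of 0.0067, Rarres1 averaged 7.86 in Tg2576 OBs and 7.59 in WT OBs. Its difference was 0.28 (SE 0.10, unadjusted p = 0.027 in limma), with all Tg2576 arrays above all WT arrays. Rarres2, the gene of chemerin, differed by 0.19 (SE 0.091), and Dhrs3, which turns retinaldehyde back to retinol, by 0.28 (SE 0.15). Neither passed the thresholds.

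The relatives of the members by family gave the same picture. Of 17 other aldehyde dehydrogenases, with a median of 0.026, Aldh4a1, an enzyme of proline breakdown in mitochondria, averaged 7.30 in Tg2576 OBs and 6.89 in WT OBs. Its difference was 0.41 (SE 0.16, unadjusted p = 0.027 in limma). It was high in WT replicate 2 (7.29) and low in WT replicates 1 and 3 (6.72 and 6.67), and it passed the thresholds without that array (0.61) and with array weights (0.48). Aldh1b1, a mitochondrial enzyme, differed by -0.27 (SE 0.11) and Aldh3b2 by -0.28 (SE 0.15). Of 12 other intracellular lipid-binding proteins, relatives of Crabp1 and Crabp2 with a median of 0.056, Fabp7 of glia differed by 0.19 (SE 0.092), Fabp1 by 0.11 (SE 0.088) and Fabp2 by -0.16 (SE 0.13). The mean level of Fabp1, 4.44, lay below the medians of the negative controls, and that of Fabp2, 6.81, lay near them. None of either family passed the thresholds.

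**Figure D2:**
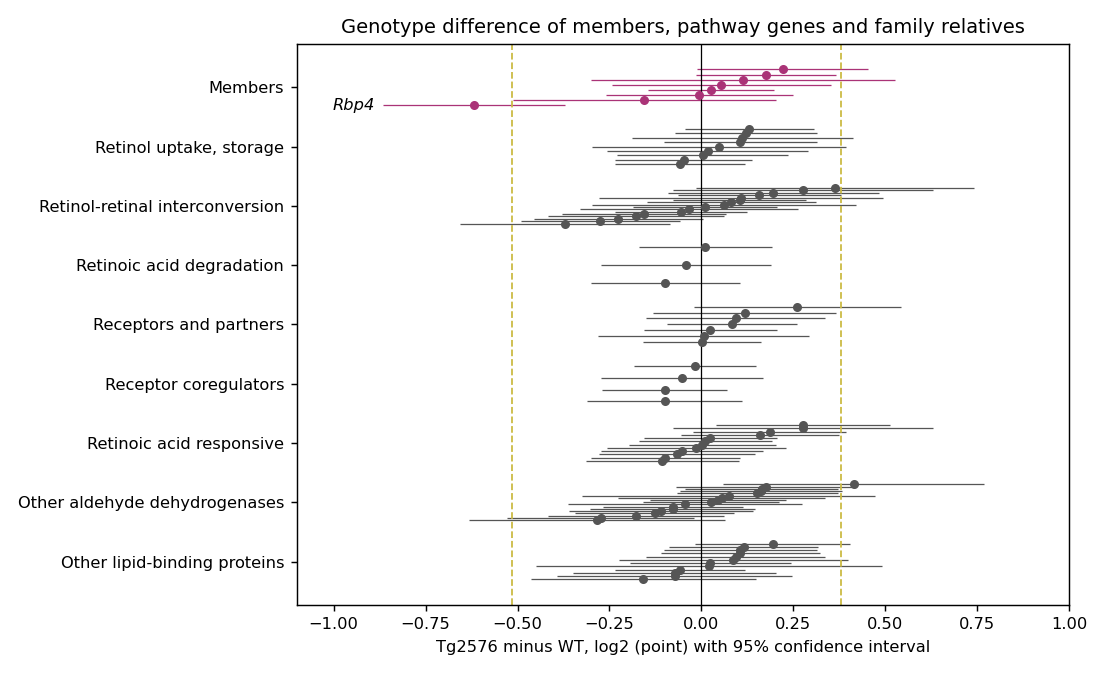
Tg2576 minus WT difference on the log2 scale (horizontal axis) with its 95% confidence interval from limma for the 8 members (purple) and the listed pathway genes and family relatives (grey), 1 point per gene in rows by list, a gene of several lists shown in each. Dashed lines mark the fold thresholds of 0.7 and 1.3, and Rbp4, at -0.62, is the one point of all rows that passed both the fold and the p threshold.

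The genes beside Rbp4 on chromosome 19 include Cyp26a1 and Cyp26c1, 2 of the genes that break down retinoic acid. None of the 10 nearest measured protein-coding genes, 5 on each side in the order of the GRCm38.p6 annotation, passed the thresholds, and their differences ran from -0.20 to 0.33. The nearest on each side were Ffar4, a fatty acid receptor, at -0.16 (SE 0.12) and Pde6c, a phosphodiesterase of cones, at -0.089 (SE 0.11). Myof differed by -0.20 (SE 0.11) and Plce1 by 0.33 (SE 0.10), the ends of that range. Around each of the other 7 members the 10 nearest measured genes also held no call, where 0.797% of all probe sets were called. Adamts17 near Aldh1a3, named for its value, differed by -0.32 (SE 0.097, unadjusted p = 0.0097 in limma). Its fold of 0.80 did not fall under 0.7, and its means of 6.38 in Tg2576 and 6.70 in WT lay below the medians of the negative controls.

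**Figure D3:**
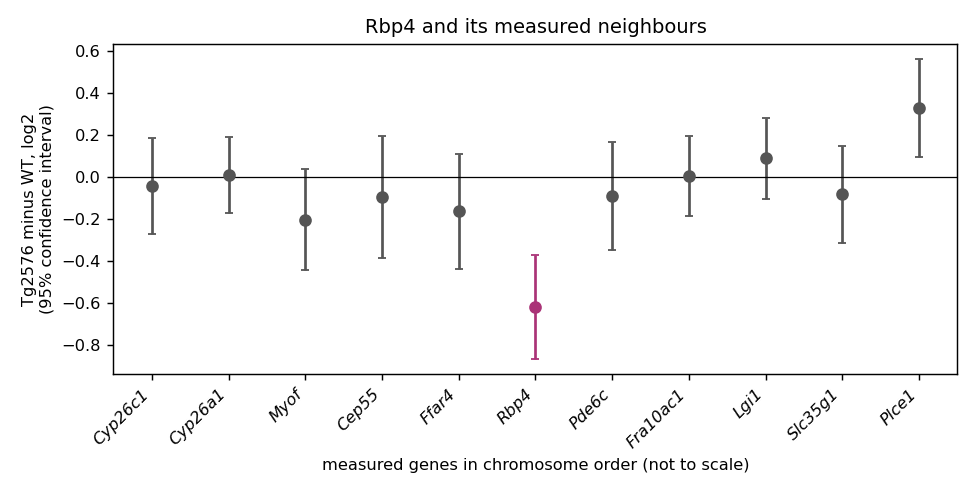
Tg2576 minus WT difference on the log2 scale (vertical axis) with its 95% confidence interval from limma for Rbp4 (purple) and the 5 measured protein-coding genes on each side (grey), in chromosome order and not to scale. Rbp4 is at -0.62, and its neighbours lie between -0.20 and 0.33.

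The members did not vary as a block across the arrays. Over the 28 pairs of members, the highest Pearson's r over the 6 arrays was 0.75 for Crabp2 and Aldh1a2 (Spearman's rho 0.89), followed by 0.70 for Aldh1a1 and Aldh1a2 (rho 0.77). The lowest were -0.79 for Rbp4 and Aldh1a3 (rho -0.71), both without overlap between genotypes but in opposite directions, -0.68 for Rbp4 and Crabp1 (rho -0.60) and -0.64 for Crabp1 and Crabp2 (rho -0.77). These are descriptions over 6 arrays that share the normalization. The mean of 18 markers of the meninges, where Aldh1a2 and Crabp2 are known to be expressed, lay 0.26, 0.12 and -0.0084 from the WT mean in Tg2576 replicates 1 to 3. In WT it lay at 0.013, 0.14 and -0.15 in replicates 1 to 3. Aldh1a2 had an r of 0.77 with that mean, Aldh1a1 0.69, Aldh1a3 0.57 and Crabp2 0.46. With the mean of the choroid plexus markers Crabp2 had an r of 0.75, higher than with that of the meninges. Aldh1a3 likewise had a higher r with the means of astrocyte markers (0.87) and olfactory sensory neuron markers (0.86) than with that of the meninges. One of the meningeal markers passed the thresholds, Dcn, a matrix proteoglycan gene that was 0.54 higher in Tg2576 (SE 0.14). Next by p were Lum, at 0.40 (SE 0.13), and Islr, at 0.26 (SE 0.13). Lum had means of 6.57 in Tg2576 and 6.17 in WT, below the medians of the negative controls. Differences in this list ran from -0.093 for Ptgds to 0.54 for Dcn, with a median of 0.10. The transporter genes Slc22a6 and Slc6a13, chosen for mention after their values were seen, differed by 0.19 (SE 0.21) and 0.12 (SE 0.22). The lowest marker, Dpp4, also named for its value, had a mean level of 5.64. The part of the meninges and the choroid plexus in the values of these members was not tested.

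Rbp4 went the opposite way to several marker lists that stood higher in Tg2576. The mean of 11 astrocyte markers lay 0.13 to 0.18 above the WT mean in Tg2576 arrays and between -0.021 and 0.037 in WT arrays. Gfap passed the thresholds, and 7 markers had an unadjusted p under 0.05 in limma, all of them higher. Gjb6 (-0.16), Aldh1l1 (-0.077) and Slc4a4 (-0.0062) of the same list were lower. The mean of 8 markers of ensheathing glia lay at 0.15 to 0.23 in Tg2576 and -0.068 to 0.057 in WT, with Frzb and Sox10 past the thresholds. Mybpc1 (-0.17) and Ngfr (-0.061) of that list were lower, and S100b stood in both glial lists. For 19 markers of olfactory sensory neurons, of which 4 passed, the ranges were 0.17 to 0.51 and -0.087 to 0.098. Of those markers Cngb1 (-0.12) and Ncam2 (-0.060) were lower. Means of 13 endothelial markers (0.091 to 0.25 against -0.048 to 0.036, 1 past the thresholds) and of 11 markers of bulb neurons (0.091 to 0.14 against -0.018 to 0.016, 1 past the thresholds) were also higher in every Tg2576 array. The rise was uneven within these lists. Among bulb neuron markers Tbx21 (0.48), Slc17a7 (0.30) and Eomes (0.24) had the largest differences. Gad1 (0.0043), Synpr (-0.0067), Sp8 (0.0084) and Dlx5 (0.011) hardly differed, and Pcp4 differed by -0.099 (SE 0.079). Esam (-0.045) and Mfsd2a (-0.016) of the endothelium were slightly lower. The mean of the 8 dopaminergic markers lay at -0.042 to 0.0057 in Tg2576 and -0.035 to 0.029 in WT arrays. Of 6 measured genes of blood and liver, chosen because Rbp4 and Ttr are abundant in liver and their products circulate, none passed the thresholds. Alb, the albumin gene of liver, was at 6.68 in Tg2576 and 6.51 in WT, under the medians of the negative controls. Alas2, a gene of haem synthesis in red cells, was well above them at 9.41 and 9.03 (difference 0.38, SE 0.21), and Apoa4, an apolipoprotein gene, was at 7.86 and 8.08 (difference -0.22, SE 0.10). The part of these cell types in the Rbp4 difference was not tested.

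**Figure D4:**
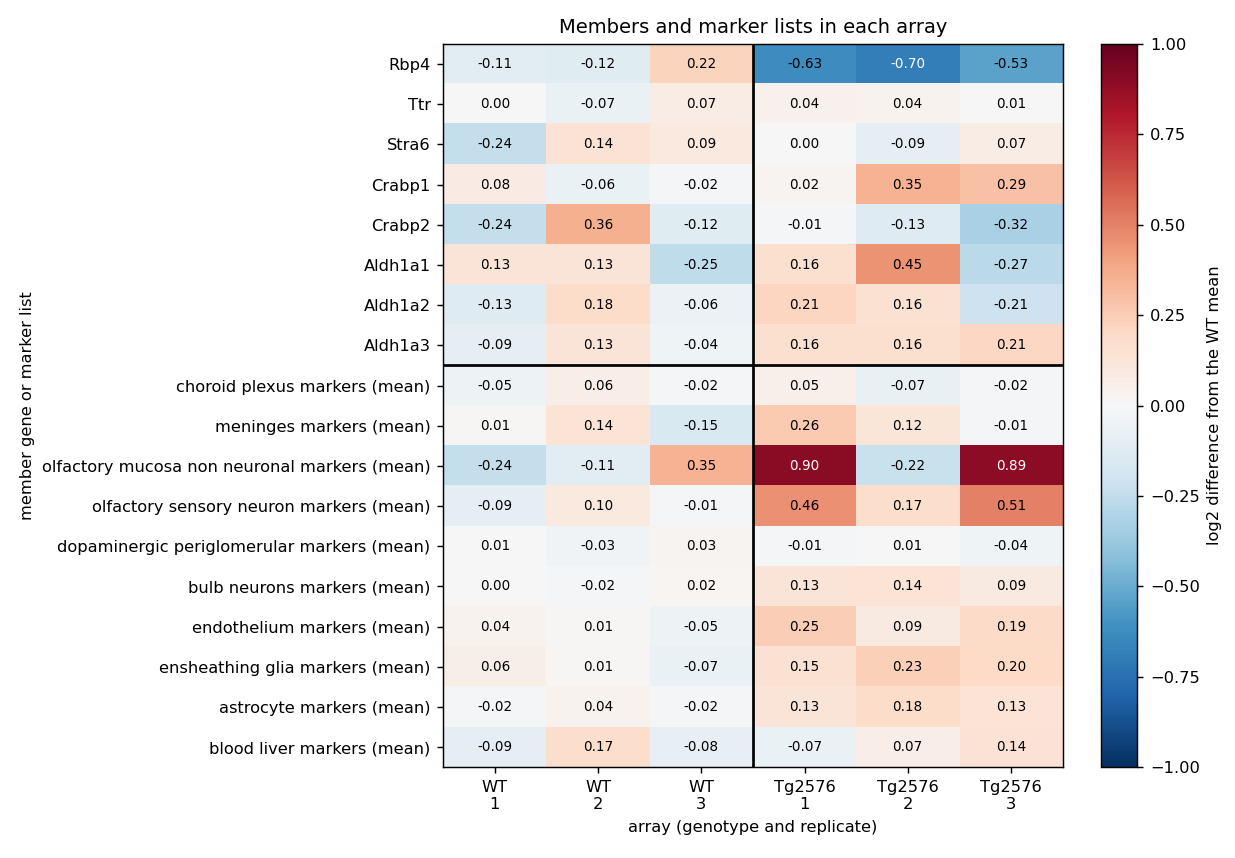
Log2 difference from the WT mean (colour, with the value printed) in each of the 6 arrays (columns) for the 8 members (upper rows) and for the mean of each marker list (lower rows). Rbp4 is between -0.70 and -0.53 in the 3 Tg2576 arrays, while the mucosa list is at 0.90 and 0.89 in replicates 1 and 3 and at -0.22 in replicate 2.

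The genes whose values followed a member most closely were sought for the 3 members with the largest SD over the arrays, Rbp4 (0.36), Aldh1a1 (0.27) and Crabp2 (0.24), among 3514 probe sets whose mean reached 7 and whose SD reached 0.15. For Rbp4 they were Uxs1, which makes UDP-xylose (Pearson's r 0.98), Ropn1 (0.98), Sash3, an adapter gene of lymphocytes (0.97), Gpr19 (0.96) and Dmrt1 (0.96). All 5 were lower in every Tg2576 array than in any WT array, by -0.34 for Ropn1 to -0.27 for Uxs1, so their likeness includes the genotype difference itself, and none passed the fold threshold. For Aldh1a1 they were Sulf2, a heparan sulfatase (0.98), Spast (0.97), Atg4a (0.96), 4930481A15Rik (0.96) and Nit2 (0.95). For Crabp2 they were Arg2, a mitochondrial arginase (0.99), Gm2897 (0.98), Scd4, a desaturase (0.98), Uchl4 (0.97) and Afmid (0.97). The genes most like Aldh1a1 and Crabp2 overlapped between genotypes, as these members did. With 6 arrays and this many probe sets, such values are a description of these arrays.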

How the data were processed

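Total RNA from the OBs of 3 Tg2576 and 3 WT mice was hybridised to Affymetrix mouse Clarion S arrays. The authors deposited log2 expression values made by RMA, whose version and annotation build are not given in the sources used here. RMA equalises the distributions of the arrays, so a shift shared by most genes would not be seen. Of 28815 rows, 22206 probe sets were tested, and 63 spike-in, 5222 negative and 1324 positive control sets were left out. A symbol was paired with 19572 of the tested sets and with 2634 none was. The genotype difference (Tg2576 minus WT, no covariate) was fitted by lmFit and eBayes of limma 3.58.1, run in R 4.3.3, and p-values were adjusted by Benjamini-Hochberg over all tested sets. Sets were called at a p, before adjustment, under 0.01, as in the study's methods, with a fold over 1.3 or under 0.7, the pair that heads the study's list of changed transcripts. No set passed a false discovery rate of 5% (smallest adjusted p 0.332), and 1896 had an unadjusted p under 0.05, so calls are open to chance. An exact permutation test of 3 against 3 arrays cannot go below 0.1. The precision is limited by 3 arrays per group. The scripts were tested on simulated data.

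The members and lists were chosen with earlier results of these data known. Named were all members, in each pathway list the called genes and the 3 with the smallest p, up to 3 of each marker list by p (other markers, Adh1 and Adamts17 were named after their values were seen), and the 5 genes most correlated with each of the 3 members of largest SD. Aldh1a7 and Aldh8a1 were named for their family. Alternatives were robust limma-trend, array weights, 3 further normalizations, a mean of at least 6, sets with a symbol only, other fold thresholds, the lowest-mean set per gene, each array left out and the replicate number as a block. Columns holding other samples numbered 0. Promoter sequences were read from RefSeq (GRCm38.p6).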

Additional observations from a re-analysis of the deposited data

How the results depend on the processing

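Rbp4 kept its direction in all alternatives run (-0.68 to -0.51) and passed the thresholds in 14 of 15. Not all of these could move it. The lowest-mean set per gene repeats the main fit, as each member has 1 probe set. The filters by mean level and by symbol leave its difference the same and change only the moderation of the variance. Without WT replicate 3 it was at -0.51 and the count of called members was 0 in place of 1, so that count ranged from 0 to 1 over the arrays left out. The other 7 members were called in no alternative. Differences near 0 changed sign when 1 array was left out. Aldh1a2 ranged from -0.025 (without Tg2576 replicate 1) to 0.18 and was at -0.0092 without WT replicate 1. Stra6 ranged from -0.12 to 0.065 (without WT replicate 2), with 0.036 without Tg2576 replicate 2 and 0.041 without WT replicate 3. Aldh1a1 ranged from -0.053 (without Tg2576 replicate 2) to 0.30, with -0.013 without WT replicate 3. Ttr ranged from -0.0074 to 0.064 and Crabp2 from -0.27 to 0.024, both changing sign without WT replicate 2. The count called among the other pathway genes and family relatives was 1 in place of 0 with array weights (Aldh4a1, a relative of the ALDH1A enzymes), and 0 to 1 with 1 array left out. Over all probe sets, 177 were called, and 468 without a fold threshold (280 higher, 188 lower). With an equal fold threshold in both directions, 75 were lower in place of 22. Leaving out 1 array gave 169 to 249 calls, 145 to 202 higher and 23 to 47 lower, the last without WT replicate 1. The causes were not tested. Replicate numbers did not pair the arrays. Deviations of same-numbered arrays correlated at 0.036, -0.038 and -0.043, and with the number as a block Rbp4 stayed at -0.62 and 225 probe sets were called. Some listed genes lay near the negative controls, where a difference may not be detectable.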
